A study of Mus musculus with 6 samples.

Results

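Glycolysis splits glucose into pyruvate in the cytosol, and pyruvate is then either reduced to lactate or passed to mitochondria, where the pyruvate dehydrogenase complex turns it into acetyl-CoA. The retinal pigment epithelium (RPE) takes glucose from the choroidal blood and hands much of it on to the photoreceptors, which are strongly glycolytic and return lactate. Genes of these steps were followed in RPE/choroid, that is, the RPE with the vessel-rich tissue on which it rests. The genes are the glucose carriers, the enzymes from hexokinase to lactate dehydrogenase, the enzymes that set the activator of phosphofructokinase, and the E1 subunits and kinases of pyruvate dehydrogenase. They were chosen by symbol, and 32 of the 33 symbols were found among the 33924 genes of the table. Pkm, pyruvate kinase, was not listed under that symbol. A row named Pkm2, an older symbol that RefSeq gives to Pkm alone, is described beside the members and is not counted with them.

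Total RNA was sequenced after removal of ribosomal RNA in mice of the C57BL/6J strain, 3 young and 3 aged, all labelled male, with no other genotype or treatment in either group. Young mice were 1 to 2 months old by their labels. Aged mice were 20 to 24 months old by the titles and 22 to 24 months by the time label, and the study's methods give a higher range for the young mice and name both sexes. Each library pooled a pair of eyes, from which neural retina, lens, cornea and muscle had been dissected away before the pigmented layer was scraped off. Per gene, the deposited table holds a mean of all 6 libraries in normalized counts, the log2 fold change between the groups, its standard error (SE) and the p that DESeq2 adjusted over all genes tested. It gives no value per mouse, so neither the spread between mice nor the depth of each library is known here. Positive fold changes below are higher in aged mice. The table does not state its sign, which was set so that the counts of higher and lower genes fit the study's description, and every direction depends on it. A gene is said to rise, fall or differ where the adjusted p is under 0.05.

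Marker genes showed which cells the scraped layer held. RPE genes were abundant, with a mean of 43745 normalized counts for Rpe65, the retinoid isomerase that defines the RPE. Ckm, the creatine kinase of muscle, stood at 12939, and the summed level of 15 photoreceptor markers was 109538 in young mice, so transcripts of striated muscle and photoreceptors were present as well. In bulk tissue, fewer cells of a type and less RNA per cell cannot be told apart.

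Most genes of the pathway did not pass the test between young and aged RPE/choroid, and those that did were hexokinases, phosphofructokinase and its regulators, and a lactate dehydrogenase. Of the 31 members with an adjusted p, 6 were higher in aged mice, namely Hk3, Pfkfb3, Pfkl, Hk1, Pfkfb4 and Ldhb, and 1, Pfkfb2, was lower. Tpi1, triose phosphate isomerase, had a fold change but no p-value. The 7 genes are 22.6% of the members tested. Over all 18636 genes tested, 21.2% differed, 11.3% higher and 9.92% lower, and among the 12716 genes with a mean of at least 100 normalized counts the share was 22.6%. The number of members that differed was therefore near that of genes in general. Their median log2 fold change was 0.06, against -0.01 for all genes tested and 0.06 for the genes with a mean of at least 100. By direction, the members higher in aged mice were 19.4% of those tested and the member lower was 3.23%, against 13.9% and 8.65% of the genes with a mean of at least 100. How many members rose or fell also varied with the scaling. The median log2 fold change of genes with a mean of at least 1000 was 0.12. When this shift was subtracted from every gene, 6 of the 31 members tested were higher (19.4%, as before) and 4 were lower. Of all 18636 genes tested, at any mean, 7.46% were then higher and 15.6% lower. The 3 added falls were those of Gapdh, Pdk1 and Pdhb.

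**Figure D1:**
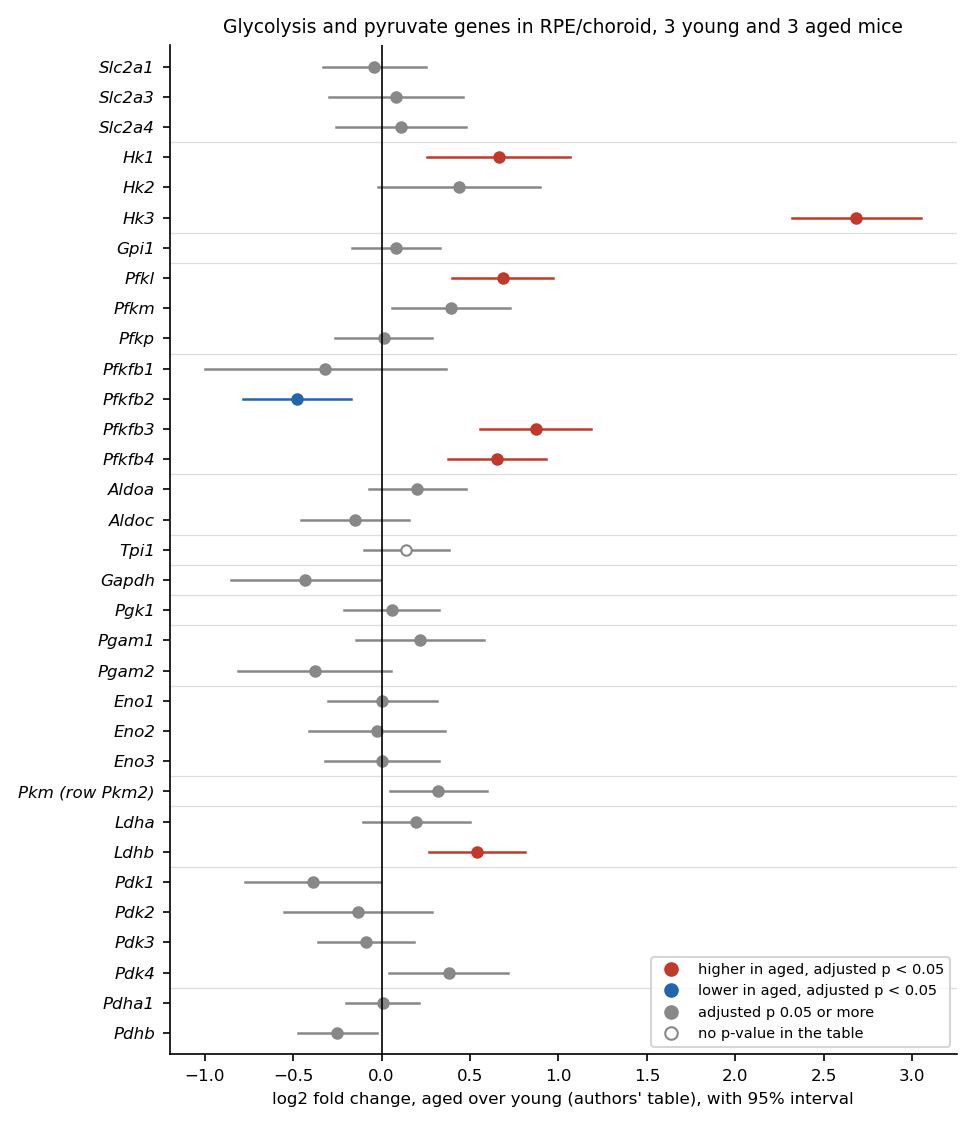
Log2 fold change of each gene in aged over young RPE/choroid (x axis) with its 95% interval, 3 mice per group, in the order of the pathway from glucose uptake (top) to pyruvate dehydrogenase. Red and blue points differ by adjusted p, grey points do not, and the open point (Tpi1) has no p-value. Hk3 stands alone at 2.68, Pfkl, Pfkfb3, Pfkfb4, Hk1 and Ldhb lie between 0.54 and 0.87, and Pfkfb2 lies at -0.48.

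**Figure D2:**
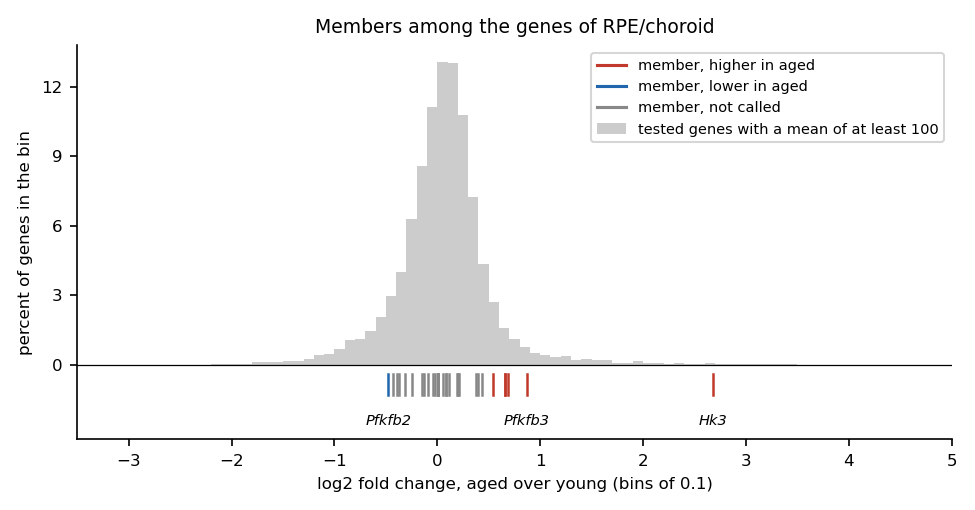
Distribution of log2 fold changes (x axis, bins of 0.1) of the tested genes with a mean of at least 100 normalized counts (grey, percent of genes per bin), with each tested member as a tick beneath it. The ticks of members not called lie between -0.43 and 0.44, within the bulk of the distribution, and Hk3 lies in its right tail.

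None of the 3 glucose carriers among the members passed the test. Slc2a1, which encodes GLUT1, the carrier on both faces of the RPE, was the carrier with the highest level, 7534 normalized counts per kb of transcript, or 90.2% of the signal of the 3 carriers. Its log2 fold change was -0.04 (SE 0.15, adjusted p 0.887), with a 95% interval from -0.33 to 0.25. Slc2a4, the insulin-responsive carrier of muscle and fat, followed with 624 normalized counts per kb and a log2 change of 0.11 (SE 0.19, adjusted p 0.732). Slc2a3, the carrier of neurons and blood cells, had 196 normalized counts per kb and a log2 change of 0.08 (SE 0.19, adjusted p 0.813). After the centring described above the values of Slc2a4 and Slc2a3 were just below 0, so no direction is given for them.

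Hexokinases trap glucose in the cell by phosphorylation, and 2 of the 3 were higher in aged mice. Hk3, the hexokinase of myeloid cells, on chromosome 13 at 55005985 to 55021385 (GRCm38, minus strand), changed more than any other member. Its mean over the 6 libraries was 408 normalized counts, from which group means of 110 in young and 707 in aged mice were worked out. That is a log2 change of 2.68 (SE 0.19, adjusted p 2.96e-44), or 6.43-fold. Hk1, the hexokinase that most tissues use and that binds mitochondria, on chromosome 10 at 62268855 to 62379908, rose by 0.66 (SE 0.21, adjusted p 0.0102), from 2847 to 4503 normalized counts. Hk2, the form induced by insulin and low oxygen and used by photoreceptors, had 0.44 (SE 0.23, adjusted p 0.175). Its interval from -0.02 to 0.90 holds both no change and a rise as large as that of Hk1.

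Per kb of transcript, Hk1 held 70.4% of the hexokinase signal over all libraries, and Hk3 held 1.71% in young and 6.85% in aged mice. The hexokinase with the largest fold change was thus the one with the lowest level in both groups. Macrophage markers moved with Hk3: 10 of 12 tested were higher in aged mice, their summed level went from 13976 to 36653 normalized counts, and Adgre1 (listed as Emr1), which defines macrophages, had a log2 change of 2.12 (SE 0.16, adjusted p 5.89e-38). Of 7 neutrophil markers, 4 were tested and 3 were higher, with summed levels of 155 and 515 normalized counts. Among these Mpo was listed at 0, and Ly6g and Elane had means of 0.296 and 0.348. The part of these cells in the rises of Hk3 and Hk1 was not tested.

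Phosphofructokinase commits the sugar to glycolysis, and its liver-type gene was higher in aged mice. Pfkl, on chromosome 10 at 77986947 to 78010083, went from 3715 to 5973 normalized counts as worked out, a log2 change of 0.69 (SE 0.15, adjusted p 5.11e-05). Pfkm, the muscle type, had 0.39 (SE 0.17, adjusted p 0.0837), and its unadjusted p of 0.0213 did not hold over all genes. Pfkp, the platelet type, had 0.01 (SE 0.14, adjusted p 0.970), with an interval from -0.26 to 0.28 that does not reach the value of Pfkl. Per kb, Pfkl held 41.7% of the signal of the step in young and 49.1% in aged mice, Pfkm 35.8% and 34.4%, and Pfkp 22.5% and 16.6%. Without division by length Pfkm led with 42.1% of the mean signal, so the order of Pfkl and Pfkm depends on the length used.

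Fructose-2,6-bisphosphate is the strongest activator of phosphofructokinase, and each Pfkfb gene encodes an enzyme with both a kinase that makes it and a phosphatase that removes it. These genes moved in opposite directions. Pfkfb3, the form in which the kinase prevails, on chromosome 2 at 11471433 to 11554077, rose by 0.87 (SE 0.16, adjusted p 1.47e-06), from 467 to 853 normalized counts. Pfkfb4, on chromosome 9 at 108991778 to 109032228, rose by 0.65 (SE 0.14, adjusted p 6.23e-05), from 338 to 532. Pfkfb2, the heart type, on chromosome 1 at 130689182 to 130729253, fell by 0.48 (SE 0.16, adjusted p 0.0149), from 3919 to 2814. The intervals of the last, from -0.78 to -0.17, and of Pfkfb3, from 0.56 to 1.19, do not overlap. Pfkfb1, the liver type, had a mean of 46.0 and a log2 change of -0.32 (SE 0.35, adjusted p 0.569), too imprecise to tell.

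The fall concerned the most abundant of these 4 genes. Pfkfb2 held 78.2% of their signal per kb in young and 61.2% in aged mice, Pfkfb3 10.4% and 20.7%, and Pfkfb4 9.58% and 16.4%. Summed over the 4 genes, the signal went from 2038 to 1868 normalized counts per kb, a log2 ratio of -0.13. Photoreceptor markers had summed levels of 109538 in young and 130197 in aged mice, and 0 of 15 differed by the deposited DESeq2 test, with 0 at an unadjusted p under 0.05 and a median SE of 0.42. Of 12 skeletal muscle markers tested, 4 were lower. The part of photoreceptors and muscle in the fall of Pfkfb2 was not tested. Macrophage and neutrophil markers, given above beside Hk3, were higher in aged mice as were Pfkl, Pfkfb3 and Pfkfb4, and their part in these rises was not tested.

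**Figure D3:**
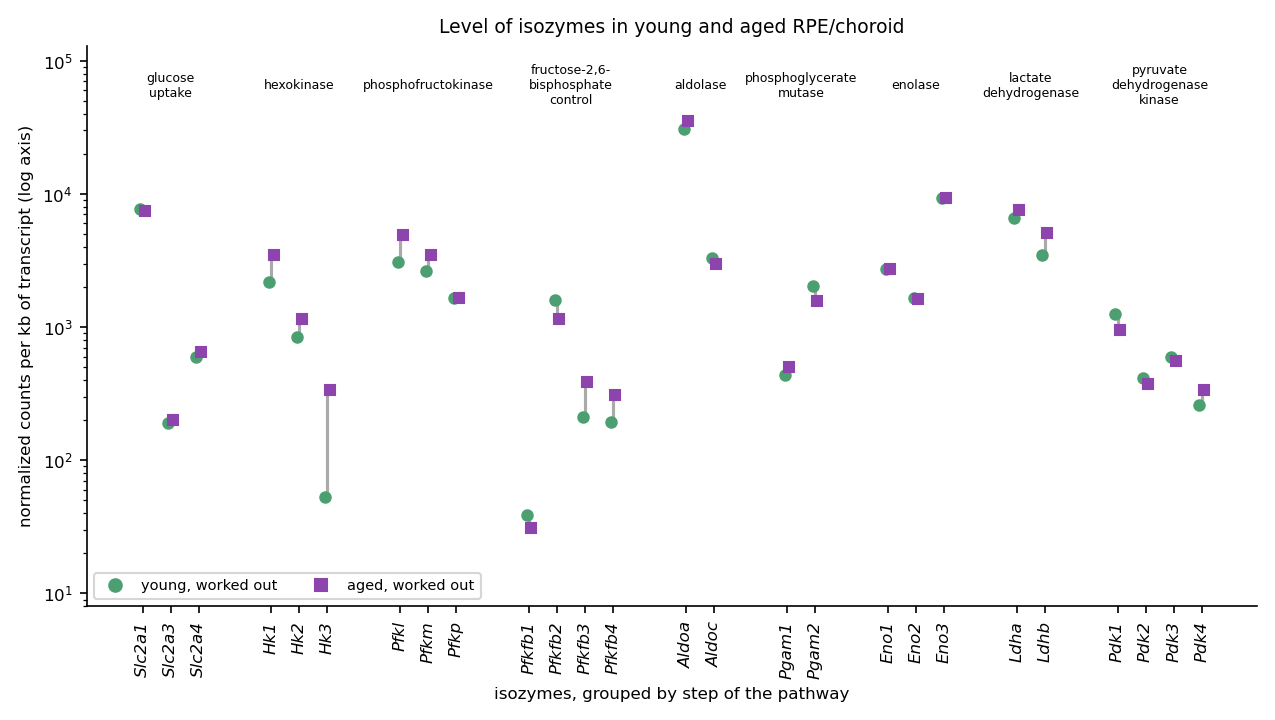
Level of each isozyme in young (circles) and aged (squares) RPE/choroid, in normalized counts per kb of transcript on a log axis, grouped by step. Group means were worked out from the mean over 6 libraries and the fold change, so they carry no error bars. The leading gene of each of the 9 steps is the same in both groups, and the widest gap between groups is that of Hk3, from 52.8 to 340.

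Promoters are shown for Hk3, the member with the largest change, and for Pfkl and the 3 Pfkfb genes that differed. They are shown because members that move with age may share promoter words. Each is the 250 bases upstream of a RefSeq start, whereas the gene positions given above are those of GENCODE. By those positions, the windows of Pfkl and Pfkfb2 lie inside the gene and those of Pfkfb3 and Pfkfb4 lie partly inside it. The sequences are from RefSeq (GRCm38.p6), 5′ to 3′ on the strand of the gene. Capitals mark ACGTG on either strand, a form of the core that hypoxia-inducible factors bind. The other form, GCGTG, was not searched. Where RefSeq lists several starts, the first listed is given, which holds for Pfkfb3 (2 starts) and Pfkfb2 (3 starts).
Hk3 (chr13:55021386-55021635, minus strand): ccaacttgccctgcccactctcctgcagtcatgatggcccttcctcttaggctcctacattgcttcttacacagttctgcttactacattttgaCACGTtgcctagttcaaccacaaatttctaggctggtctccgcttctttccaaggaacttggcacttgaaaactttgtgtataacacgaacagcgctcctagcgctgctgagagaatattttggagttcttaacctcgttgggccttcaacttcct
Pfkl (chr10:78009808-78010057, minus strand): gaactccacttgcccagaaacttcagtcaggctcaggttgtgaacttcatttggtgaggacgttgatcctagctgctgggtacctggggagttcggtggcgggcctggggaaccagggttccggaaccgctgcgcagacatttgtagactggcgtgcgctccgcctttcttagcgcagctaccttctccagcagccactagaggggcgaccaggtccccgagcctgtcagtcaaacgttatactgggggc
Pfkfb3 (chr2:11553930-11554179, minus strand): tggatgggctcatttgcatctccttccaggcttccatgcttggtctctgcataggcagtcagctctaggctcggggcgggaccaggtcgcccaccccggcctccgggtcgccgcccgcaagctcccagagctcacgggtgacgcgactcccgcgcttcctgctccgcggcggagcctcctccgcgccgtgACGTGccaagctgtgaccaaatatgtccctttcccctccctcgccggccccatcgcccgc
Pfkfb4 (chr9:108991652-108991901, plus strand): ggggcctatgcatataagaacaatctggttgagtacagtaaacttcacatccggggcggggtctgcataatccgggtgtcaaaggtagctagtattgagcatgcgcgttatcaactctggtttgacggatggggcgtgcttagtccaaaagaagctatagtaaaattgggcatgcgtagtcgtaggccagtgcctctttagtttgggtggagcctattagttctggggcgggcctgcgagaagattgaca
Pfkfb2 (chr1:130715822-130716071, minus strand): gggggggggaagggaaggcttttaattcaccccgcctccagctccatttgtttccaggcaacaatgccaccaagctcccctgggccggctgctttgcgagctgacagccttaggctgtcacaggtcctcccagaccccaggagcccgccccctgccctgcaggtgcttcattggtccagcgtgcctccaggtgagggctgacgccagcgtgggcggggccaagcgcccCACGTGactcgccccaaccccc
Hk3 holds 1 match, Pfkfb3 holds 1, and Pfkfb2 holds CACGTG, which reads as ACGTG on both strands. Pfkl and Pfkfb4 hold no ACGTG in this window, and of the other members that rose, neither Hk1 nor Ldhb does at any listed start. Promoters were found for 30 of the 32 members, at 48 starts. ACGTG stood in 17 of these (35.4%), against 16.6% of all 32851 promoters of the same length, and CACGTG in 5 (10.4%), against 6.02%. The windows of 1 gene can overlap, and per gene 13 of the 30 members (43.3%) held ACGTG at 1 start or more, against 4998 of 27025 genes (18.5%). The median GC content of the members' promoters was 58.6%, against 52.4% for all. Hk3 and Pfkfb3, which rose, and Pfkfb2, which fell, are among those with a match. The other members with a match were Slc2a1, Hk2, Pfkm, Aldoa, Pgk1, Pgam1, Ldha, Pdk2, Pdk3 and Pdhb, which did not differ. A link of this word to age was not tested.

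Of glucose phosphate isomerase and the enzymes that follow phosphofructokinase, from aldolase to enolase, no gene tested passed the test. Aldoa, the aldolase of muscle and most other tissues, had the highest level of all members, 32746 normalized counts per kb, and a log2 change of 0.20 (SE 0.14, adjusted p 0.325). Aldoc, the aldolase of brain and retina, had 3146 normalized counts per kb and -0.15 (SE 0.16, adjusted p 0.549). Gpi1, glucose phosphate isomerase, had 2555 normalized counts per kb and a log2 change of 0.08 (SE 0.13, adjusted p 0.710). Tpi1, with 10535 normalized counts per kb, had a log2 change of 0.14 (SE 0.12) and an interval from -0.10 to 0.38.

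For Pgk1, which makes the first ATP of the pathway, the log2 fold change was 0.06 (SE 0.14, adjusted p 0.815). Gapdh, whose transcript is often used as a reference, had -0.43 (SE 0.21, adjusted p 0.142), with an interval from -0.85 to -0.01. After centring it was -0.56 with an adjusted p of 0.0435, so its call depends on the scaling. Its level was 167 normalized counts per kb, far below Aldoa and Tpi1 before it and 637 normalized counts per kb for Pgk1 after it. Words of 31 bases were compared across the GENCODE transcripts of GRCm38, and 47 other genes each held at least 10% of the words of Gapdh. The table listed 35 of them, with a summed mean of 111 normalized counts. The part of this sharing in the low level of Gapdh was not tested.

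Among the members, phosphoglycerate mutase and enolase were led by their muscle forms. The shares below leave out Pgam1-ps2 (mean 446 normalized counts) and Eno1b (mean 546), which share words with Pgam1 and Eno1. Pgam2, the muscle mutase, held 82.3% of the signal per kb in young and 75.5% in aged mice, with a log2 change of -0.38 (SE 0.22, adjusted p 0.224). Pgam1, the form of most other tissues, had 0.22 (SE 0.18, adjusted p 0.444). Eno3, the muscle enolase, held 68.2% and 68.4% of the enolase signal, and its log2 fold change was 0.0022 (SE 0.16, adjusted p 0.995). Eno1, the common form, had 0.0030 (SE 0.16, adjusted p 0.993), and Eno2, the neuronal form, had -0.03 (SE 0.20, adjusted p 0.948). Of 12 skeletal muscle markers tested, 4 were lower in aged mice and 0 higher, with a median log2 fold change of -0.34. The summed level of all 13 muscle markers listed, Ckm included, went from 197288 to 170690 normalized counts. The falls were those of the contractile genes Mylpf (-0.92), Myl1 (-0.94), Myh2 (-0.84) and Myh1 (-0.70), while Ckm had 0.06 (SE 0.19) and no p-value. The part of muscle in the values of Pgam2 and Eno3 was not tested.

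At the end of the pathway, lactate dehydrogenase B was higher in aged mice. Ldhb, the subunit that favours the oxidation of lactate to pyruvate, on chromosome 6 at 142490249 to 142507957, went from 2955 to 4296 normalized counts as worked out, a log2 change of 0.54 (SE 0.14, adjusted p 0.00103). Ldha, the subunit that favours lactate, had 0.20 (SE 0.15, adjusted p 0.398), and its interval from -0.11 to 0.50 holds values close to that of Ldhb. Ldha held 65.3% of the signal of both genes per kb in young and 59.7% in aged mice. Macrophage and neutrophil markers, given above beside Hk3, were higher as well, and their part in the rise of Ldhb was not tested. The row of Pkm2, pyruvate kinase, had a mean of 24590 normalized counts and a log2 change of 0.32 (SE 0.14, adjusted p 0.0814). It holds the reads of the M1 and M2 splice forms together.

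Reads of some of these genes fit other genes as well. Of the members, 11 had under 90% of their words to themselves, with Pgk1 the lowest at 45.3%, followed by Pgam1 at 62.9% and Ldhb at 67.0%. The gene that shares words with Ldhb, Gm5514, holds 527 of them, and it rose too, by 0.53 (SE 0.16, adjusted p 0.00731) at a mean of 330 normalized counts. Pgam1-ps2, at a mean of 446 against 467 for Pgam1, had 0.38 (SE 0.18, adjusted p 0.137). Eno1b (listed as Gm5506), a near copy of Eno1, had a mean of 546 and -0.02 (SE 0.18, adjusted p 0.969). How the reads were divided within these pairs is uncertain. Of the other genes that differed, Pfkfb2 had 82.9% of its words to itself and Hk3, Hk1, Pfkl, Pfkfb3 and Pfkfb4 each at least 99.4%.

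No gene of pyruvate dehydrogenase or its kinases passed the test. Pdk1, a kinase that switches the complex off and is induced by low oxygen, held the largest part of the kinase signal per kb, 49.9% in young and 43.1% in aged mice, with a log2 change of -0.39 (SE 0.19, adjusted p 0.144). Pdk4, the kinase induced by fasting and fatty acids, had 0.38 (SE 0.17), with an unadjusted p of 0.0275 that did not hold over all genes. Pdk2 and Pdk3 had -0.13 (SE 0.21) and -0.09 (SE 0.14). For the E1 subunits, the alpha subunit gene Pdha1 had 0.0054 (SE 0.10, adjusted p 0.980) and the beta subunit gene Pdhb had -0.25 (SE 0.11, adjusted p 0.102). With the centring, the adjusted p was 0.0390 for Pdk1 at -0.51 and 0.00721 for Pdhb at -0.37, so both calls depend on the scaling.

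Absence of a call is not evidence of no change at this precision. Of the 24 members tested that did not differ, 15 had a 95% interval within 0.5 of 0 on the log2 scale, and 9 had one that reaches a change of 0.5 or more. An unadjusted p under 0.05 was found for 12 members, among them Pfkm, Pdk4, Pdhb, Gapdh and Pdk1, which did not pass over all genes. This is 5 beyond the 7 called, and 32.6% of all genes tested had such a p.

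**Figure D4:**
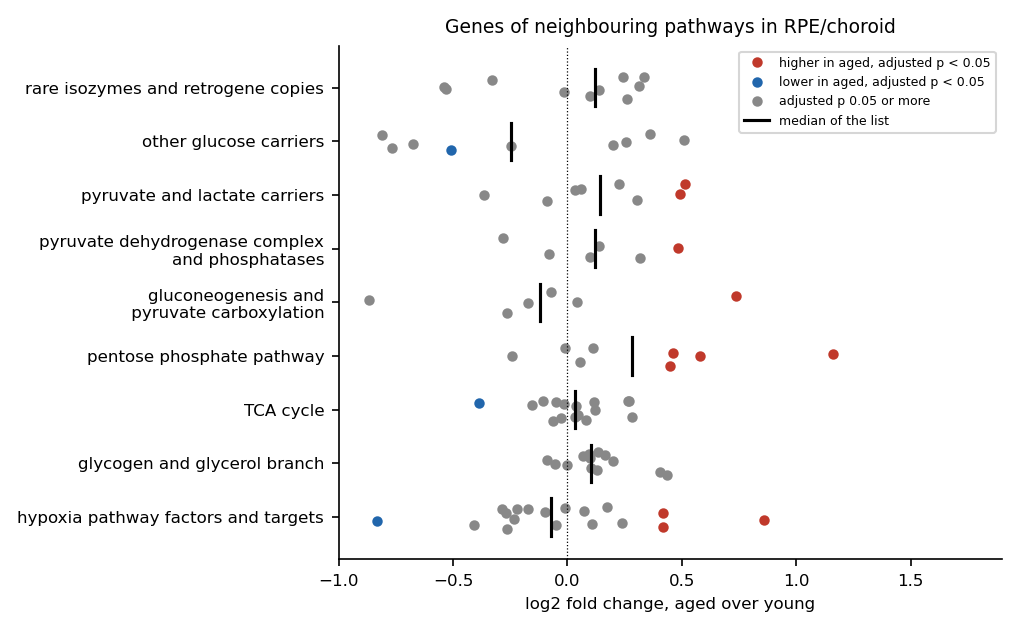
Log2 fold change in aged over young RPE/choroid (x axis) of the tested genes of 9 neighbouring lists (rows, 1 point per gene, spread vertically for visibility), with the median of each list as a black bar. Red and blue points differ by adjusted p. The pentose phosphate pathway has the highest median, 0.28, with Pgd at 1.16, and the TCA cycle lies close to 0 with 1 gene lower.

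Genes that feed, drain or branch from glycolysis were compared from 9 lists of 105 genes. The lists also hold rare isozymes and 18 hypoxia pathway factors and targets, and the latter are described again below. Of the 94 tested, 11 were higher and 3 lower in aged mice, 14.9%, with a median log2 fold change of 0.06. Over all genes tested the share was 21.2%, 11.3% higher and 9.92% lower. After centring 5 of the 94 were higher and 6 lower, where 7.46% and 15.6% of all genes tested were. The pentose phosphate pathway, which branches off after hexokinase and makes NADPH and ribose, had 4 of 8 tested genes called, all higher. This was the largest share among the 9 lists before centring. After centring it had 2 of 8 called, and the list of the pyruvate dehydrogenase complex and phosphatases had 1 higher and 1 lower of 6. Pgd, phosphogluconate dehydrogenase, rose by 1.16 (SE 0.13, adjusted p 3.32e-16), from 630 to 1407 normalized counts. Taldo1, transaldolase, had 0.58 (SE 0.17, adjusted p 0.00569), H6pd, the hexose phosphate dehydrogenase of the endoplasmic reticulum, 0.46 (SE 0.14, adjusted p 0.00655), and G6pdx, which starts the pathway, 0.45 (SE 0.13, adjusted p 0.00611). After centring Pgd and Taldo1 still differed, and H6pd (adjusted p 0.0589) and G6pdx (adjusted p 0.0602) did not. The macrophage markers (10 of 12 higher, median 1.67) and neutrophil markers (3 of 4 tested higher) moved in the same direction as these genes, and their part in it was not tested.

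Among genes that act on pyruvate, Pcx, which carboxylates it to oxaloacetate, rose by 0.74 (SE 0.17, adjusted p 0.000155). Pdp1, a phosphatase that switches pyruvate dehydrogenase on, rose by 0.49 (SE 0.13, adjusted p 0.00285). The mitochondrial pyruvate carrier genes Mpc1 and Mpc2 (listed as Brp44l and Brp44) had -0.09 (SE 0.15, adjusted p 0.720) and 0.06 (SE 0.13, adjusted p 0.796), and Dlat, the E2 subunit of the complex, had -0.08 (SE 0.14, adjusted p 0.731). Of the TCA cycle, 1 of 16 genes differed, Idh3g, a subunit of isocitrate dehydrogenase, with -0.39 (SE 0.12, adjusted p 0.0109).

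Lactate and pyruvate leave and enter cells through the monocarboxylate carriers. The main carriers of the RPE, Slc16a1 on its apical face and Slc16a8 on its basal face, had 0.30 (SE 0.16, adjusted p 0.180) and 0.23 (SE 0.22, adjusted p 0.503). Slc16a3, the carrier of glycolytic cells such as muscle, had -0.37 (SE 0.21, adjusted p 0.201). Slc16a7 (0.51, SE 0.20, adjusted p 0.0432) and Emb, a chaperone of these carriers (0.49, SE 0.17, adjusted p 0.0241), were higher, and neither passed after centring (adjusted p 0.140 and 0.106). Among 9 other glucose carriers tested, Slc2a13, a carrier of inositol with protons, was lower, with -0.51 (SE 0.16, adjusted p 0.00933). The lists of rare isozymes and retrogene copies (10 tested), and of the glycogen and glycerol branch (13 tested), held 0 genes that differed by the deposited DESeq2 test, with 0 and 2 genes at an unadjusted p under 0.05. For gluconeogenesis and pyruvate carboxylation, Pcx was the 1 gene of 6 tested that differed.

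Hypoxia-inducible factors drive many glycolytic genes when oxygen is low. Hif1a had -0.27 (SE 0.12, adjusted p 0.0809), which passed after centring (-0.39, adjusted p 0.00529), and Epas1 had 0.17 (SE 0.20, adjusted p 0.594). Of 18 factors and targets tested, 3 were higher and 1 was lower, 22.2%, close to the 21.2% of all genes tested, and after centring 1 was higher and 3 were lower. Ndrg1 (0.86, SE 0.13, adjusted p 1.29e-09), Bnip3 (0.42, SE 0.12, adjusted p 0.00597) and Egln1 (0.42, SE 0.16, adjusted p 0.0436) rose, of which Ndrg1 alone passed after centring, and Adm, which encodes the vasodilator adrenomedullin, fell by 0.83 (SE 0.21, adjusted p 0.000951).

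**Figure D5:**
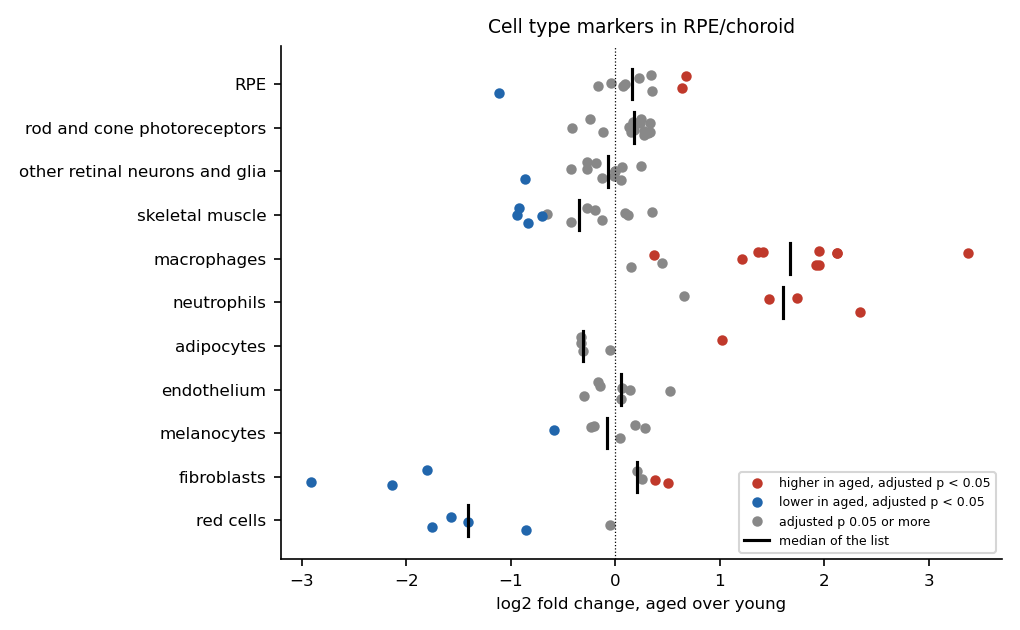
Log2 fold change in aged over young RPE/choroid (x axis) of the tested marker genes of 11 cell types (rows, 1 point per gene, spread vertically for visibility), with the median of each list as a black bar. Macrophage and neutrophil markers lie to the right, with a median of 1.67 for macrophages, red cell markers lie to the left at -1.40, and photoreceptor markers lie around 0.18.

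The other marker lists give the frame for these values. Beside the counts below, 11.3% of all genes tested were higher and 9.92% lower. Of 10 RPE markers tested, 2 were higher and 1 was lower, and after centring 1 was higher and 1 lower. The 11 RPE markers listed had summed levels of 296384 and 352949 normalized counts in young and aged mice, and Rpe65 had a log2 change of 0.10 (SE 0.16, adjusted p 0.724). Other retinal neurons and glia had 1 of 12 lower (2 after centring), and endothelium had 0 of 7 called with 1 at an unadjusted p under 0.05. The melanocyte list had 1 of 6 lower, and adipocytes had 1 of 5 higher. Most of the melanocyte list are pigment genes, and in this pigmented layer their reads cannot be assigned to melanocytes rather than RPE. Adipoq, which defines fat cells, had a mean of 22.8 normalized counts. Fibroblast markers were split, 2 higher and 3 lower of 7 (1 and 3 after centring), with a median of 0.21 although their summed level had a log2 ratio of -1.24. The adipocyte list also differed in sign, with a median of -0.31 and a log2 ratio of its summed level of 0.76. Red cell markers were lower in 4 of 5.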

How the data were processed

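RPE/choroid RNA of 3 young and 3 aged mice was compared, with groups taken from the sample labels. The authors used BBDuk for trimming, STAR for alignment (Ensembl transcripts, GRCm38) and Sailfish for TPM estimates, from which they made normalized counts by total count. They compared young with aged mice by DESeq2 on read counts, and how those were made is not given in the sources used here. In the deposited table the signal is the mean normalized count of each gene over all libraries. The log2 fold change and its SE, the Wald score, the p-value and the adjusted p are likewise as deposited by the authors from DESeq2, its version not given in the sources used here. These are the authors' own test results and were not refitted, because 0 columns hold a value per library. The depth of each library is therefore not known here (the study gives only an average), and SD, leave-one-out and paired fits could not be had.

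The sign was reversed so that positive means higher in aged mice. As deposited, 1849 calls were positive and 2100 negative, and the study gives the smaller number as higher in young mice. Genes with a deposited adjusted p were counted as tested, and those under 0.05 as called. Intervals are 95% normal intervals from the SE. Group means were worked out from the mean and the fold change, for groups of equal size. The deposited SE was small even for the rarest genes (0.188 for Ly6g at a mean of 0.296), as in fold changes shrunken toward 0, so folds, group means and intervals may be drawn toward no change. Levels per kb used the mean GENCODE transcript length. The adjusted p recomputed by the Benjamini-Hochberg method differed from the deposited one by at most 0.572%, and the code was tested on simulated data. Python 3.11.15, pandas 2.3.3 and scipy 1.17.1 were used.

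The members and lists were chosen with earlier results of these data known. Every member could be named. From each other list, up to 4 called genes with the largest change could be named, as could defining markers of cell types and Hif1a, Epas1, Eno1b, Mpc1, Mpc2, Dlat, Slc16a1, Slc16a3 and Slc16a8, and not all of these are. Gm5514, Pgam1-ps2, Mpo, Ly6g and Elane were named after their values were seen. The labels call the libraries separate mice of a group, so each p-value compares a fold change with an SE estimated from separate mice. An identity of the isozyme proteins was planned and was not analysed here.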

Additional observations from a re-analysis of the deposited data

How the results depend on the processing

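The 7 members called were called again with no filter on low genes and with adjustment over genes with a mean of at least 100. They were also called with the Wald score used for genes without a p-value and with Pkm counted through its older symbol. The last 2 settings were chosen after seeing the data. Counting Pkm leaves the deposited adjusted p of every other member unchanged, so it could not alter these calls. With no filter, Slc16a7 (adjusted p 0.0606) and Egln1 (0.0611) no longer passed, and calls went from 14 to 12 among neighbouring genes and from 32 to 30 among markers. At an adjusted p under 0.01, 5 members remained, and Hk1 and Pfkfb2 were lost. With a log2 change of at least 1 as well, 1 member (Hk3), 1 neighbouring gene (Pgd) and 20 markers were left of 7, 14 and 32. CACGTG contains ACGTG, so its share could only be equal or lower. It was 10.4% in place of 35.4% for members' promoters, and 6.02% in place of 16.6% for all promoters.

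Centring kept the 7 members and added 3 that were lower. Of the 72 genes followed through each alternative, it turned the sign of 12 that were not called, Slc2a3 (-0.043), Slc2a4 (-0.014), Gpi1 (-0.044), Pfkp (-0.11), Pgk1 (-0.067), Eno1 (-0.12), Eno3 (-0.12), Pdha1 (-0.12), Mpc2, listed as Brp44 (-0.066), Rpe65 (-0.028), Snap25 (-0.056) and Ckm, which has no p-value (-0.065). Without division by length the leading isozyme was the same in 8 of 9 steps. Centring shifts every gene alike and so does not bear on that order.

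No paired analysis was possible because values of single libraries were not in the files used here, and for the same reason leaving out each mouse was not run. The depth of each library is not known here, and with 3 mice per group the SE of the members, 0.10 to 0.35, limits what could be called.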
